A study of Mus musculus with 10 samples.

Results

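The comparison set vehicle-treated MC3T3 cells on day 6 of osteogenic culture against vehicle-treated MC3T3 cells on day 3. MC3T3 is an established mouse line of calvarial pre-osteoblasts that matures into matrix-forming osteoblasts in culture. The members are all 23358 gene rows of the deposited count table, read in 2 of the 10 libraries of the series, or 2 of its 6 RNA libraries, chosen by their titles. Both cultures were seeded in maintenance medium, moved on the next day to osteogenic medium (ascorbic acid with beta glycerol phosphate), and given vehicle (DMSO). Vehicle and medium were renewed 3 days later, so the day 6 cells had received a second dose of vehicle and the day 3 cells lay at the time of that renewal. Neither library came from cells given the EZH2 inhibitor GSK126. Beside them, some levels are given from the vehicle library of day 10, and some ratios from cells given 5 µM GSK126 on days 6 and 3. Treatment between days 6 and 10 is not described here, so day 10 values are given as levels only. The design text does not say whether RNA was taken before or after a medium change. There was 1 library a side, and nothing in the labels tells whether the cultures were independent, so no difference below has a replicate check and no test was made. MC3T3 cells are 1 immortal line grown in a dish, without the osteoclasts, vessels and marrow of bone.

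Osteoblasts pass from a dividing state, through a phase in which type I collagen matrix is laid down, to a phase in which that matrix is mineralized. RUNX2 and osterix, the product of Sp7, are the transcription factors that commit cells to the lineage. Ascorbic acid is needed to hydroxylate collagen, and beta glycerol phosphate supplies phosphate for mineral. Bone sialoprotein (Ibsp), osteopontin (Spp1), osteocalcin (Bglap) and DMP1 are secreted proteins of the mineralizing matrix.

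The day 6 library held 104690066 counts and the day 3 library 111537936. The ribosomal RNA precursor Rn45s took 5.99% of the counts on day 6 and 4.37% on day 3. Levels are counts per 1000000 counts of the library (CPM) after scaling by the trimmed mean of M values (TMM), and each log2 ratio is day 6 over day 3. Bracketed ranges are exact 95% binomial intervals of the ratio on sequenced fragments, and they cover counting error only. Of 12 mesenchymal and pre-osteoblast marker genes 11 had a mean CPM of at least 1, and their ratios lay between -0.24 and 0.46. Among markers of other cell types, no endothelial or epithelial gene of 9 each reached that level, and their summed CPM was 0.995 and 0.585 on day 6 and 1.04 and 0.504 on day 3. In the bulk RNA of these cultures, a change in the share of cells that use a gene cannot be told apart from a change in RNA per cell.

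Most transcripts had close levels on both days. Of 11603 genes with a mean CPM of at least 1 in the 2 libraries, 90.9% lay within 1.5-fold, and the 5th and 95th percentiles of the log2 ratio were -0.57 and 0.53 around a median of 0.0003. A ratio of at least 2-fold was taken as a change. By that rule 186 genes (1.6%) were higher and 109 genes (0.939%) lower on day 6, together 2.54% of those tested. These are the shares to set beside the list counts below. With library totals alone as the scale, the same counts were 165 and 157. Changes of 4-fold or more numbered 44 upward and 13 downward, and changes of 8-fold or more 13 and 6. Many of the changed genes were scarce: the median of their mean CPM was 5.10 for higher and 6.25 for lower genes, against 32.0 over all genes tested. Of the 186 higher genes, 51 stood below 1 CPM on day 3, and of the 109 lower genes 23 stood below 1 CPM on day 6. Such genes met the filter only through the day on which they were high, and the list counts below include some of them. A further 6173 rows had 0 counts in both libraries and 5582 rows had counts below the level required.

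**Figure D1:**
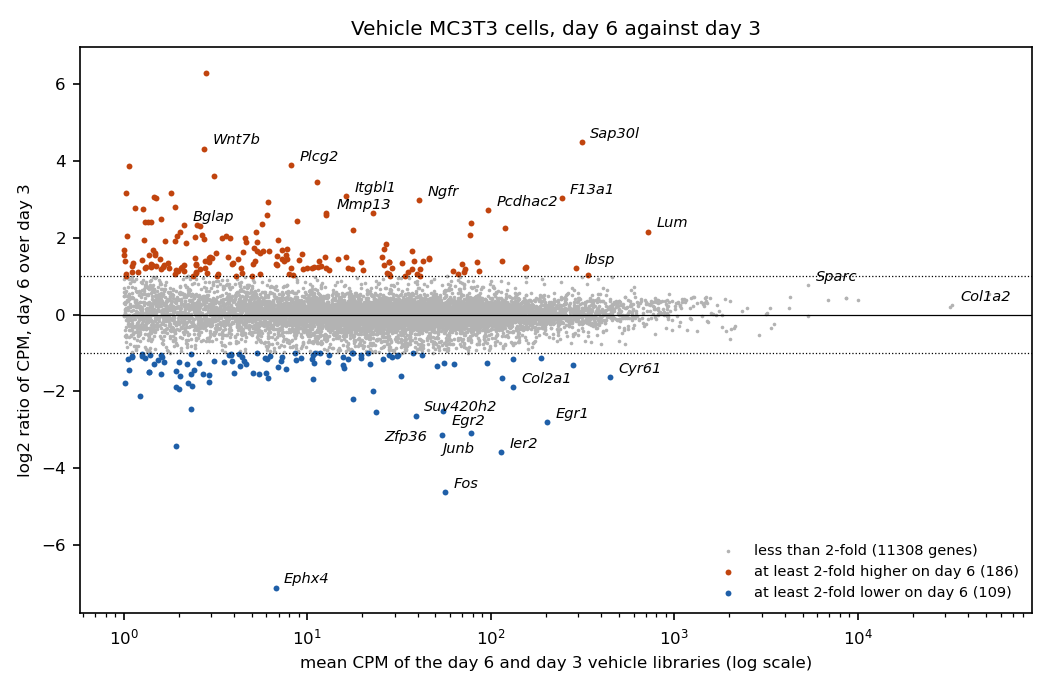
Each point is 1 of 11603 genes, plotted by its mean CPM in the day 6 and day 3 vehicle libraries (horizontal, log scale) and its log2 ratio of day 6 over day 3 (vertical), with dotted lines at 2-fold. The 186 higher genes reach from Bglap and Wnt7b at low levels to Lum and F13a1 at high levels, and the lowest ratios at high level belong to Fos and Ier2.

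The genes that rose most, among those with mean CPM of at least 5, included enzymes, receptors and matrix genes. F13a1, the A subunit of the transglutaminase factor XIII, had 44528 counts on day 6 and 6150 on day 3, 8.13-fold higher. Itgbl1, an integrin beta-like secreted protein, had 3002 and 396 counts, 8.47-fold higher. Mmp13, a collagenase of mineralizing bone and cartilage, had 2252 counts on day 6 and 402 on day 3, a log2 ratio of 2.65 [2.44 to 2.88]. These 3 genes went on to 147188, 10436 and 14482 counts in the vehicle library of day 10, above both earlier days. Enpp2, which encodes autotaxin, the enzyme that makes lysophosphatidic acid, had 13398 and 2872 counts on days 6 and 3 (log2 ratio 2.39). Plcg2, a phospholipase C, had 1574 and 118 (3.88), and Ngef, a guanine nucleotide exchange factor, had 1118 and 162 (2.94). Agt, angiotensinogen, had 2240 and 412 counts (2.60). Tnnc2, a troponin C of skeletal muscle, had 4038 and 726 (2.64), and Xpnpep2, an aminopeptidase, had 968 and 212 (2.35).

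Other genes at the extremes were uneven across the 3 vehicle days. Sap30l, a relative of a SIN3 corepressor subunit, had 3052, 61378 and 2808 counts on days 3, 6 and 10, and its log2 ratio of day 6 over day 3 was 4.50 [4.42 to 4.57]. Pcdhac2, a clustered protocadherin whose last exons are shared with its neighbours, had 2960, 17298 and 1546 counts on days 3, 6 and 10 (log2 ratio 2.71). The day 6 vehicle library stood alone in both genes. Corin, a membrane protease that cleaves natriuretic peptide precursors, was added after its values were seen because its ratio was the highest of any gene tested, at 6.29 [5.18 to 9.03]. It had 6, 572 and 4 counts on days 3, 6 and 10, so it met the filter only through its day 6 level. Ephx4, an epoxide hydrolase, went the other way, with 1542, 8 and 1760 counts on days 3, 6 and 10 and a log2 ratio of -7.11 [-9.30 to -6.06]. Ngfr, the low-affinity neurotrophin receptor, differed from these in keeping its level, with 1060, 7404 and 6296 counts on days 3, 6 and 10 (log2 ratio 2.97).

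Some genes of the mineralizing matrix rose by day 6, while the type I collagen chains were close to their day 3 level. Of 24 listed genes of bone matrix and mineralization, 20 had enough counts. Of these 7 rose (35%, against 1.6% of all genes tested) and 0 fell. The median log2 ratio of the 20 was 0.61, against 0.0003 over all genes. Ibsp, bone sialoprotein, had 409 CPM on day 6 and 177 CPM on day 3 (41980 and 20362 counts), a 2.31-fold rise. Omd, osteoadherin, a keratan sulfate proteoglycan of bone, had 166 and 63.1 CPM (log2 ratio 1.39). Dmp1, a phosphoprotein of late osteoblasts and osteocytes, had 11.4 CPM on day 6 and 4.15 CPM on day 3 (1.45 [1.23 to 1.67]), and Phospho1, a phosphatase of matrix vesicles, had 11.3 and 4.91 CPM (1.20). Ifitm5, Bglap and Bglap2 stood below 1 CPM on day 3, so they met the filter only through their day 6 level. Ifitm5, a membrane protein specific to osteoblasts, had 428 counts on day 6 and 94 on day 3 (2.33 [1.89 to 2.84]). Bglap had 368 and 80 counts (2.34 [1.87 to 2.90]), and its neighbour Bglap2 had 236 and 48 (2.41 [1.82 to 3.16]). These osteocalcin genes are nearly identical, so the split of reads between them is uncertain. Mepe, Enpp1 and Bmp8a lay below the level required, with mean CPM of 0.438, 0.292 and 0.340.

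The other measured genes of this list stayed within 2-fold. Spp1, osteopontin, had 318 CPM on day 6 and 279 CPM on day 3 (0.18 [0.15 to 0.22]), and its large increase came later, with 1228 CPM in the day 10 vehicle library. Alpl, the tissue-nonspecific alkaline phosphatase, had 15 and 10.9 CPM on days 6 and 3 (0.46 [0.31 to 0.61]). Phex, an endopeptidase of phosphate balance, stood at 0.89 and Smpd3, a sphingomyelinase needed for mineralization, at 0.81. Sparc, osteonectin, a collagen-binding glycoprotein, had 6722 CPM on day 6 and 3974 CPM on day 3 (0.76). Mgp, matrix Gla protein, an inhibitor of mineralization, was the lowest of the list, with 398 and 674 CPM (-0.76 [-0.78 to -0.73]). The phosphate transporter gene Slc20a1 stood at -0.51 and Ank, which exports pyrophosphate and citrate, at -0.16.

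**Figure D2:**
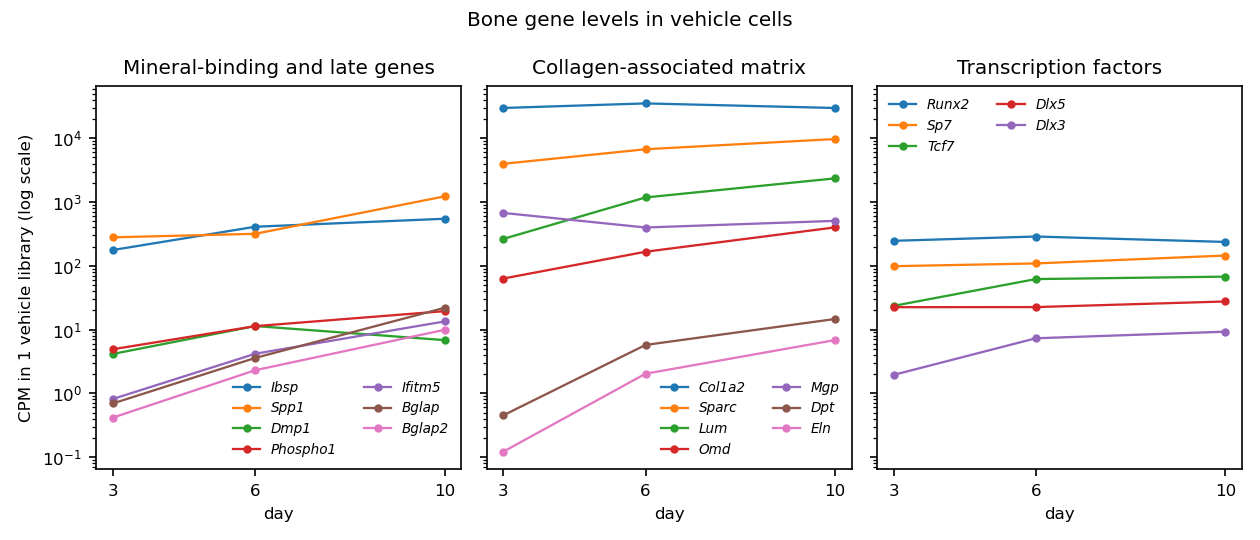
Levels in CPM (log scale) of 19 bone, matrix and transcription factor genes in the vehicle libraries of days 3, 6 and 10, with 1 library a day and no error bars. Bglap, Ifitm5, Lum and Dpt climb on both steps, Dmp1 peaks on day 6, Spp1 climbs after day 6, and Runx2 and Dlx5 stay level.

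Most lineage transcription factors stayed within 2-fold. Of 18 listed osteoblast transcription factors, all above the level required, 2 rose and 0 fell, and the median log2 ratio was 0.07 (-0.002 with library totals alone). Runx2 had 288 CPM on day 6 and 246 CPM on day 3 (0.22 [0.19 to 0.26]), and Sp7 had 109 and 98.5 CPM (0.14 [0.09 to 0.20]). Dlx5 stood at 0.01. Dlx3, a homeobox gene of osteoblasts and hair, rose to 7.29 CPM on day 6 against 1.94 CPM on day 3 (748 and 224 counts, 1.90 [1.60 to 2.23]). Tcf7, a nuclear partner of beta-catenin, rose to 61.9 CPM against 23.5 CPM (1.39). Of 12 osteocyte genes, 8 were measured, Dmp1 alone rose, and the median was 0.25. Sost, the Wnt inhibitor of mature osteocytes, had 0 counts in both libraries.

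The letters AACCACA, the core that RUNX proteins bind, were sought on both strands of the RefSeq promoters, from 250 bases before to 50 after each start (GRCm38.p6). A gene with several starts counted when any of them held the letters. They were present for 3 of the 15 measured bone matrix genes with a promoter entry (20.0%), Spp1, Dmp1 and Slc20a1, and for 4.43% of the 9260 measured genes with an entry. Only 15 of the 20 measured bone matrix genes had an entry, and those without one, such as Bglap2, were not searched. Stretches that end at a start site are shown for Spp1 and Dmp1, which encode related mineral-binding proteins and changed by unlike amounts. Each gene has 2 start entries, of which 1 is shown. They lie at chr5:104434961-104435110 on the plus strand and chr5:104202437-104202616 on the plus strand, and capitals mark AACCACA.
Spp1: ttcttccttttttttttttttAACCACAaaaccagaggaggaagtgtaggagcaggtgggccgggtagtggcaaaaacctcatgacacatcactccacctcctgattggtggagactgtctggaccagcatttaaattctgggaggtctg
Dmp1: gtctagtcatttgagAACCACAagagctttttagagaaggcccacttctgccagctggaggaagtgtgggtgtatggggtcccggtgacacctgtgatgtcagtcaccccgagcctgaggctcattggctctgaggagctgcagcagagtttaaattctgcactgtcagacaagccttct

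The chains of type I and type III collagen stayed within 2-fold, and 3 other collagen genes rose. Of 23 measured collagen genes 3 rose, 0 fell, and the median was 0.24. Col1a1 had 33964 CPM on day 6 and 29893 CPM on day 3 (0.18), and together Col1a1 and Col1a2 took 6.77% and 6.17% of all counts. Col3a1, the chain of type III collagen, stood at 0.39. Col11a2, a minor fibril chain, rose to 24.0 CPM against 8.49 CPM (1.5), Col24a1, a fibrillar collagen of bone, to 27.8 against 12.4 CPM (1.17), and Col15a1, a basement membrane collagen, to 100.03 against 44.3 CPM (1.17). Collagen-modifying enzymes and chaperones had 0 of 26 past 2-fold, with a median of 0.14. Their highest ratios were those of the prolyl hydroxylase subunits P4ha2 (0.97) and P4ha1 (0.84). Among 10 small leucine-rich proteoglycans, which bind collagen fibrils, Lum and Omd rose. Lumican, Lum, had 1179 CPM on day 6 and 264 CPM on day 3 (120904 and 30398 counts, a 4.47-fold rise) while Bgn, biglycan, stood at -0.01 and Fmod, fibromodulin, at 0.18. Dcn, decorin, was in between with 524 and 339 CPM (0.63).

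In the list of matricellular and glycoprotein genes, 3 of 27 measured members rose, 2 fell and the median was -0.08. Eln, elastin, had 208 counts on day 6 and 14 on day 3 (3.86 [2.97 to 5.41]), and Dpt, dermatopontin, which assists collagen and elastic fibre assembly, had 588 and 52 (3.61 [3.09 to 4.30]). Eln and Dpt stood below 1 CPM on day 3, so they met the filter only through their day 6 level. Mfap4, a microfibril-associated protein, had 458 and 184 counts (1.47). Cyr61, a CCN protein made on serum or mechanical stimulation, fell to 219 CPM on day 6 against 677 CPM on day 3 (-1.63). Has1, a hyaluronan synthase, fell to 1.01 against 2.22 CPM (-1.12). Of 19 measured matrix proteases and inhibitors, Mmp13 alone rose, 0 fell, and the median was 0.38, with Mmp14, the membrane-bound activator of other MMPs, at 0.52 and Mmp2, a gelatinase, at 0.44.

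The Wnt, BMP, Notch and Hedgehog lists each included members that changed, beside 1.6% higher and 0.939% lower over all genes tested. In lists this short, 1 changed member says little about the list as a whole. In the Wnt pathway, which drives osteoblast formation through beta-catenin, 2 of 5 measured secreted antagonists rose. They were Notum, a lipase that strips the lipid from Wnt proteins, with 1068 counts on day 6 and 196 on day 3 (2.60 [2.30 to 2.94]), and Wif1, a Wnt-binding protein, with 624 and 176 (1.98). The other measured antagonists, Dkk2, Sfrp2 and Dkk3, stood at 0.76, 0.27 and 0.13. Feedback targets had 3 of 8 rising, Notum, Tcf7 and the Dishevelled-binding Nkd2 (1.3), with a median of 0.72, while Axin2 stood at 0.53 and Lef1 at 0.36. Of 11 measured ligands and R-spondins, Wnt7b, a ligand made by bone-forming cells, rose, with 536 counts on day 6 and 28 on day 3 (4.32 [3.65 to 5.32]). Wnt7b stood below 1 CPM on day 3 and met the filter only through its day 6 level. Rspo2, an agonist that protects Wnt receptors, fell to 8.66 CPM against 22.9 CPM (-1.40). The median of the ligands was 0.19.

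In the BMP pathway, whose ligands induce bone, the ligand gene Gdf6 rose to 51.6 CPM on day 6 against 22.6 CPM on day 3 (1.19) as the 1 of 15 ligands and receptors past 2-fold (median 0.05, and -0.02 with library totals alone). The BMP antagonist Nog, noggin, rose to 448 counts against 126 (1.98 [1.59 to 2.42]). Of the ID genes, inhibitors of helix-loop-helix factors and direct BMP targets, 3 fell. Id1 had 102 and 352 counts (-1.60), Id2 had 8.56 and 17.7 CPM (-1.05) and Id4 had 19.8 and 42.2 CPM (-1.09). Id3 stood at -0.88, and the inhibitory Smad genes Smad7 and Smad6 at -0.64 and -0.45. This target list had 1 of 17 higher, 3 lower and a median of -0.26. Hes1, a Notch target, fell to 2.05 against 5.94 CPM (-1.53) as the 1 of 7 measured Notch genes past 2-fold, with a list median of -0.22. Gli1, a transcriptional target of Hedgehog signalling, fell to 0.702 against 2.03 CPM (-1.51), and all 7 measured Hedgehog genes had negative ratios (median -0.21). Id1 and Gli1 stood below 1 CPM on day 6, so they met the filter only through their day 3 level.

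Igf2 and H19 rose among growth genes. Igf2, an imprinted fetal growth factor, rose to 8.56 CPM on day 6 against 1.93 CPM on day 3 (2.14), and H19, the imprinted RNA beside it, to 4.35 against 0.868 CPM (2.30). H19 stood below 1 CPM on day 3 and met the filter only through its day 6 level. Igf2 and H19 were the 2 of 8 measured imprinted growth genes past 2-fold, and the list median was 0.15. Igf1 had 147 and 80.8 CPM (0.86), and Igfbp4, an IGF-binding protein, stood at 0.98 among 13 measured IGF genes (median 0.37, 1 higher and 0 lower). Among 16 FGF genes, Spry1, a feedback inhibitor of receptor tyrosine kinases, rose (1.18) and Dusp5, a phosphatase of ERK, fell to 102 counts against 400 (-1.78), with a median of -0.05. Dusp5 stood below 1 CPM on day 6 and met the filter only through its day 3 level. Of 10 genes of parathyroid hormone receptor signalling, the nuclear receptor gene Nr4a3 rose (1.16), the phosphodiesterase gene Pde4b fell (-1.21), and Pth1r itself stood at 0.46. Of 8 measured osteoclast coupling factors the chemokine genes Ccl2 (-1.75) and Cxcl12 (-1.33) fell. Tnfrsf11b, osteoprotegerin, stood at 0.88 and its ligand gene Tnfsf11 had 0 counts in both libraries. Of 10 chemokine and inflammatory genes 3 fell (30%, against 0.939% of all genes tested), and the list median was -0.54. They were the 2 chemokines and Ptgs2, cyclooxygenase 2, which had 656 counts on day 6 and 3362 on day 3 (-2.19).

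Next to Ephx4, the 5 lowest ratios among genes with mean CPM of at least 5 belonged to immediate early genes, which cells transcribe within minutes of a stimulus such as serum and which include AP-1 and EGR transcription factors. Of 25 measured members 10 fell (40%) and 2 rose (8%), against 0.939% and 1.6% of all genes tested, and the median was -0.66. Together the listed genes summed to 923 CPM on day 6 and 2058 CPM on day 3. Fos, an AP-1 subunit, fell to 454 counts on day 6 against 12518 on day 3, 24.4-fold lower [log2 -4.82 to -4.43]. Ier2, a nuclear immediate early protein, had 1796 and 24158 counts (-3.58), and Junb, the AP-1 partner, had 1710 and 16170 (-3.07). Zfp36, tristetraprolin, which marks AU-rich messenger RNAs for decay, had 1138 and 11266 counts (-3.14). The zinc finger factors Egr1 and Egr2 had 5234 and 40868 counts (-2.80) and 1696 and 10772 counts (-2.50) on days 6 and 3. Arc, known from neuronal synapses, had 720 and 4686 (-2.53). Btg2, Fosb and Ier3 fell by 1.27, 1.17 and 1.11 on the log2 scale.

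Other members of the class were closer to level or higher. Atf3, an AP-1 type factor that is also a stress gene, rose to 8.09 CPM on day 6 against 2.57 CPM on day 3 (1.65), and Jund stood at 0.81. Jun, Dusp1 and Egr3 stood at -0.66, -0.75 and -0.80, Myc at -0.11 and Klf4 at 0.08. In a separate list of 17 measured serum response and YAP targets, Cyr61 and Ankrd1, a muscle ankyrin repeat protein (-1.24), fell, 0 rose, and the median was -0.31. The counts of most of the lowered genes stayed low in the vehicle library of day 10, where Fos had 158 counts, Egr1 1570 and Junb 1578.

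**Figure D3:**
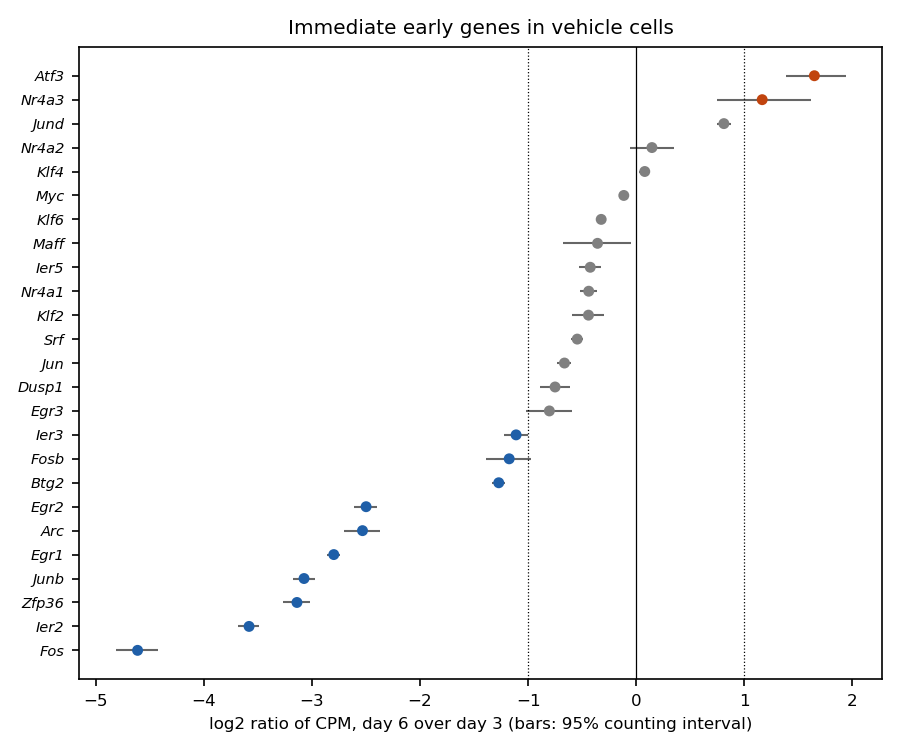
Log2 ratio of day 6 over day 3 in vehicle cells for the 25 measured immediate early genes, with bars for the 95% counting interval of 1 library a side and dotted lines at 2-fold. Fos, Ier2, Zfp36, Junb, Egr1, Arc and Egr2 form a group below -2, and Atf3 and Nr4a3 lie above 1.

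Many immediate early genes carry a CArG box, the site of serum response factor. Sought on both strands, it was found in the promoters of 3 of the 20 measured members with an entry (15%), Zfp36, Egr2 and Srf, against 1.60% of 9260 measured genes. Boxes more than 250 bases before a start lay outside the search. Only 20 of the 25 measured members had an entry, and those without one, such as Ier2 and Arc, were not searched. A CArG box can hold the letters of a CCAAT box. Zfp36 and Egr2 were among the fallen genes, and Srf, which encodes the factor, stood at -0.55. Windows that end at a start site (RefSeq, GRCm38.p6) are shown with the CArG boxes in capitals, in order at chr7:28379229-28379328 on the minus strand, chr10:67537466-67537565 on the plus strand and chr17:46556163-46556262 on the minus strand. For Egr2 the window belongs to 1 of its 5 start entries, chosen because it holds the box.
Zfp36: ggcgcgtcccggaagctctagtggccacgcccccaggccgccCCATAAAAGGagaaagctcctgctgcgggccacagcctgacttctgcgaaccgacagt
Egr2: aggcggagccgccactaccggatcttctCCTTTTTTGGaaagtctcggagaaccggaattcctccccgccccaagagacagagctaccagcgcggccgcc
Srf: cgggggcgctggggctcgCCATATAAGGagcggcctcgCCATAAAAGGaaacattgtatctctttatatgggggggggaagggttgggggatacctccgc

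Remaining genes among the lowest ratios had varied roles. Suv420h2, a methyltransferase for lysine 20 of histone H4, had 1116 counts on day 6 and 7772 on day 3 (-2.63), and Hist1h1c, a linker histone, had 946 and 4226 (-1.99). Col2a1, the main collagen of cartilage, fell to 5784 counts against 23872 (-1.88). Alcam, an adhesion molecule, had 524 and 1882 counts (-1.67), and Pkp2, a desmosomal plakophilin, had 304 and 1072 (-1.64). Cyp1b1, a target of the aryl hydrocarbon receptor, had 5650 and 20092 counts (-1.66). Nqo1, a quinone reductase induced by the same receptor and by NRF2, fell to 16.1 against 49.0 CPM (-1.61).

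Cell division genes had lower levels on day 6, nearly all by less than 2-fold. All 39 measured genes of DNA replication and S phase had negative ratios, with a median of -0.66 and quartiles of -0.81 and -0.54, and 38 had counting intervals below 0. Mcm10, a replication initiation factor, was the 1 past 2-fold under TMM scaling (-1.04). Pcna, the replication clamp, had 165 CPM on day 6 and 235 CPM on day 3 (-0.51), and Rrm2, a ribonucleotide reductase subunit, had 50.3 and 100.3 CPM (-0.996). All 34 genes of mitosis and G2 were negative as well, within a narrow band, with a median of -0.76 and quartiles of -0.78 and -0.72. Aurkb, a kinase of chromosome segregation, was the 1 past 2-fold (-1.06), Mki67, the proliferation marker, stood at -0.78, Top2a, the topoisomerase of dividing cells, at -0.71, and Bub3, a checkpoint protein, was nearest to level at -0.15. Over all genes tested, 50.0% of ratios were negative. The D-type cyclin genes Ccnd1, Ccnd2 and Ccnd3 stood at -0.06, -0.07 and -0.07. Of 19 measured cell cycle inhibitors and growth arrest genes 0 rose, and Btg2 and Gadd45g fell (-1.27 and -1.25). Cdkn1a, the p21 inhibitor, had 308 and 214 CPM (0.52), and Gas6, a ligand of TAM receptors, had 415 and 211 CPM (0.97). Ezh2, which encodes the H3K27 methyltransferase, had 46.7 CPM on day 6 and 71.2 CPM on day 3 (-0.61 [-0.68 to -0.54]), while Ezh1, its paralog in resting cells, stood at 0.21. Of 14 genes for PRC2 subunits and H3K27 demethylases 0 passed 2-fold.

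Promoters of mitotic genes are known for the cell cycle genes homology region, TTTGAA, together with CCAAT boxes, the sites of NF-Y. Sought on both strands, TTTGAA was present for 21 of the 29 measured mitosis genes with a promoter entry (72.4%), against 6 of 31 S phase genes (19.4%) and 14.0% of 9260 measured genes. CCAAT was present for 22 of the 29 (75.9%) and for 20 of the 31 S phase genes (64.5%), against 43.6% of all. Both motifs occurred together for 18 of the 29 mitosis genes (62.1%) and 5 of the 31 S phase genes (16.1%), against 7.08%. The motifs can share a base at their ends. A match is a description and no proof of binding. Examples that end at the start site (RefSeq, GRCm38.p6) are given with TTTGAA and CCAAT, or their reverse complements TTCAAA and ATTGG, in capitals. They lie, in order, at chr10:69352913-69353032 on the minus strand, chr4:118437344-118437463 on the minus strand, chr2:164769809-164769928 on the plus strand and chr11:99024190-99024309 on the minus strand, and the 4 genes, a kinase, an activator and a conjugating enzyme of the anaphase-promoting complex and a topoisomerase, had ratios of -0.72, -0.69, -0.89 and -0.71.
Cdk1: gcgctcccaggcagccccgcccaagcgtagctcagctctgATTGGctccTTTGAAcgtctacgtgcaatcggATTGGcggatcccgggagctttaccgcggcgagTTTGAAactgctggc
Cdc20: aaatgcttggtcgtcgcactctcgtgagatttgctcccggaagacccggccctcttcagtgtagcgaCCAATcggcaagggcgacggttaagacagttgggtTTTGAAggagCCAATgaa
Ube2c: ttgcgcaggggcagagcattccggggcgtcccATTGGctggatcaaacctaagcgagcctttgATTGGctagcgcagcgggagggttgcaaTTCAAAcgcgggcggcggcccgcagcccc
Top2a: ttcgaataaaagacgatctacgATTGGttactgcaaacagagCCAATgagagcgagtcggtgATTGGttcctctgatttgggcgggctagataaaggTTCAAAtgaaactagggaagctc

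Genes of sterol synthesis were lower on day 6 throughout the pathway, each by less than 2-fold under TMM scaling. All 24 measured genes of cholesterol synthesis and uptake had negative ratios with intervals below 0, from -0.93 (Tm7sf2, a sterol reductase) to -0.12 (Ebp, a sterol isomerase), with a median of -0.53. Hmgcs1, the cytosolic synthase of the pathway, had 457 CPM on day 6 and 606 CPM on day 3 (-0.41 [-0.43 to -0.38]). Of 16 fatty acid synthesis genes 15 were negative, 0 passed 2-fold and the median was -0.34, with Scd1, a desaturase, at -0.51 and Fasn, the synthase, at -0.33. The 7 measured sterol efflux and LXR targets had 0 past 2-fold and a median of 0.09.

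CCAAT was present for 16 of the 17 measured cholesterol genes with a promoter entry (94.1%), against 43.6% of all measured genes, and TCACNCCAC, a sterol regulatory element sought on both strands like CCAAT, for 1 of 17, Hmgcs1, against 1.33%. The shown stretches carry these letters or the reverse complement ATTGG in capitals and end at the start sites of Hmgcs1, Mvk (mevalonate kinase, -0.62), Idi1 (an isomerase of the pathway, -0.60) and Sc4mol (a sterol methyl oxidase that RefSeq names Msmo1, -0.37). They lie, in order, at chr13:119690101-119690350 on the plus strand (RefSeq, GRCm38.p6), chr5:114444089-114444268 on the plus strand, chr13:8885506-8885605 on the plus strand and chr8:64733579-64733748 on the minus strand.
Hmgcs1: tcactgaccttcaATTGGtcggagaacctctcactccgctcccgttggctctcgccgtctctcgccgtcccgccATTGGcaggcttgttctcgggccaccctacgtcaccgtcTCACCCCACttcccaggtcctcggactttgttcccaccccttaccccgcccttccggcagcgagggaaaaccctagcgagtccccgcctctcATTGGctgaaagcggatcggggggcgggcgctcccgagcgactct
Mvk: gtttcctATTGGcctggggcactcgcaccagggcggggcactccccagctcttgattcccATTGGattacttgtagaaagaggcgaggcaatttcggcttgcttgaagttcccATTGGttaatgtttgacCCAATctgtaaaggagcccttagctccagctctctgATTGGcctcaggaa
Idi1: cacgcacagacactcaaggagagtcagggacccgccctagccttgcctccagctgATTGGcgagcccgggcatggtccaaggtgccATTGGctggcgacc
Sc4mol: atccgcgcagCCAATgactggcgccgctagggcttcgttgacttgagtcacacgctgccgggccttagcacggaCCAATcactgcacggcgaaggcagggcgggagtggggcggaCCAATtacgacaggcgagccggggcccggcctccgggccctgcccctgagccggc

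**Figure D4:**
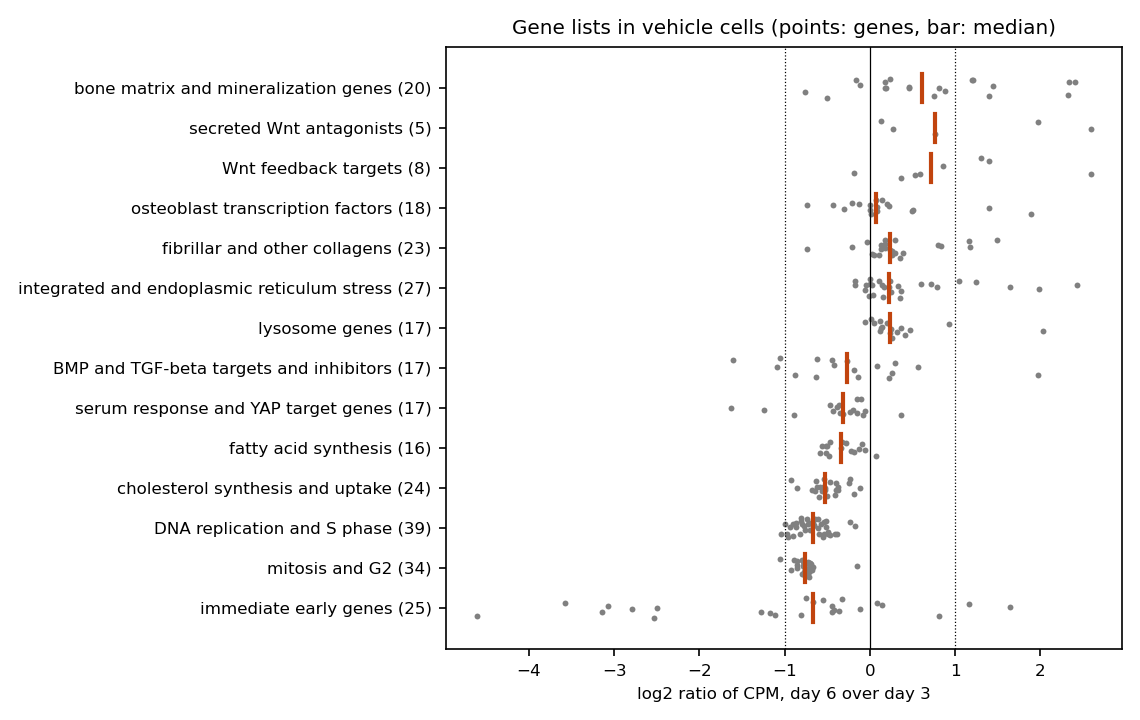
Log2 ratio of day 6 over day 3 in vehicle cells for each measured member (points) of 14 gene lists, with the list median as a bar, the number of measured members in brackets and dotted lines at 2-fold. The S phase, mitosis and cholesterol lists lie wholly below 0, the bone matrix list reaches past 2, and the immediate early list is the widest.

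Stress response genes included 5 that rose. The list of the integrated stress response and the unfolded protein response had 27 measured genes. Of these 5 rose (18.5%, against 1.6% of all genes tested), 0 fell and the median was 0.22. Trib3, a pseudokinase induced by ATF4, had 1518 counts on day 6 and 314 on day 3 (2.43 [2.19 to 2.70]). Slc7a11, the cystine transporter, had 562 and 158 counts (1.98), and Chac1, which degrades glutathione, had 1094 and 594 (1.05, and 0.97 with library totals alone). Vldlr, a lipoprotein receptor, rose to 219 against 92.04 CPM (1.249), and Atf3 was given above. Asns, asparagine synthetase, and Ddit3, CHOP, stood at 0.72 and 0.79, Atf4 itself at -0.002, and the chaperones Hspa5, Hsp90b1 and Calr at 0.23, 0.03 and -0.01. Trib3 and Slc7a11 had 126 and 42 counts in the vehicle library of day 10.

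Hypoxia, glycolysis and lysosome lists had positive medians. Of 12 measured hypoxia genes Pdk1, a kinase that shuts the pyruvate dehydrogenase complex, rose to 40.2 CPM on day 6 against 15.6 CPM on day 3 (1.36), and Car9, a carbonic anhydrase, rose to 254 counts against 122 (1.21), with a median of 0.36. Vegfa stood at -0.22 and Slc2a1, the glucose transporter, at -0.65. Of 17 glycolysis genes 14 were positive and 0 passed 2-fold (median 0.14), with Pgk1, phosphoglycerate kinase, at 0.79 and Ldha, lactate dehydrogenase, at 0.31. Of 19 genes of pyruvate dehydrogenase and the citrate cycle Pdk1 alone rose (median -0.02). Lysosome genes had 16 of 17 positive (median 0.23), of which Gpnmb, a glycoprotein also made by osteoblasts, rose to 5.81 against 1.41 CPM (2.03), and Ctsk, cathepsin K, stood at 0.93. Among 15 oxidant defence genes Slc7a11 rose and Nqo1 fell.

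Contractile and interferon lists had negative medians. Of 12 measured genes of smooth muscle type actin cytoskeleton 9 were negative and 0 passed 2-fold (median -0.17), with Acta2, smooth muscle actin, at 1573 CPM on day 6 and 2462 CPM on day 3 (-0.65). Of 21 interferon-stimulated genes Ifi44 fell (-1.02), 0 rose and the median was -0.16. In CPM itself, the largest gains after Rn45s were in Col1a2, Col1a1, Sparc, Col3a1, Lars2, Fn1 and Eef1a1, from 5346 CPM for Col1a2 to 1804 CPM for Eef1a1. The largest losses were in Malat1, a nuclear noncoding RNA, with 2376 CPM on day 6 and 3424 CPM on day 3, then Acta2, Actg1, Postn, Flna, Tpm1, Scd2 and Actb. All 16 of these abundant genes stayed within 2-fold. In the remaining lists, integrins had Itgbl1 as the 1 of 18 past 2-fold (median -0.07), and G1 cyclins (11 measured) and cadherins and connexins (6) had 0 (medians -0.07 and -0.22).

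Markers of other cell types were few and mixed. Of 17 matched chondrocyte genes 8 were measured, Col11a2 rose and Col2a1 fell, the summed CPM was 264 on day 6 and 381 on day 3, Sox9, the cartilage regulator, stood at -0.01, and Acan, aggrecan, had 0 counts. Of 11 matched macrophage and blood genes 4 were measured, of which Csf1r rose to 154 counts against 58 (1.54) and Cd68 fell to 82 counts against 198 (-1.09). Csf1r stood below 1 CPM on day 3 and Cd68 below 1 CPM on day 6, so each met the filter only through the other day. The defining leukocyte gene Ptprc had 2 counts in each library and Emr1 and Tyrobp had 0, and the list summed to 15.6 CPM on day 6 and 12.7 CPM on day 3. Adipocyte genes had 2 of 12 measured and 0 past 2-fold, with a summed CPM of 12.8 and 11.2 and Adipoq at 2 counts in each library. Skeletal muscle genes had 2 of 10 measured, Acta1 fell (-1.55), and the sum was 5.21 and 5.92 CPM. Of 9 matched neuronal and glial genes 3 were measured, and the tubulin Tubb3 rose to 13.3 against 5.82 CPM (1.19), with sums of 30.6 and 26.6 CPM.

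A separate readout of vehicle-treated MC3T3 cells was the chromatin immunoprecipitation of H3K27me3, a silencing histone mark and the product of EZH2, done 24 hours after vehicle was first given. The authors' deposited list held 34498 vehicle islands, called by SICER on 1 ChIP library against its own input (mm10). Median reads per island were 43 in ChIP and 31 in input. The authors' adjusted p-value of ChIP against input was above 0.05 for 329 islands (0.954%), and these were counted too. Some entries lay below input, such as those at Rn45s and Lars2 (authors' folds 0.253 and 0.304). An island was counted within the gene or 2 kb on either side. The filter on mean CPM lets in genes that were nearly silent on day 3 only if they were high on day 6, so shares were read among genes with at least 1 CPM on day 3, a choice made after seeing the data. By that choice 37 of 135 higher genes had an island (27.4%, exact binomial 95% interval 20.1% to 35.7%), against 12 of 130 lower genes (9.23%, 4.86% to 15.6%) and 800 of 11290 genes in neither class (7.09%, 6.62% to 7.57%). Genes are not independent and no test was made. The lower genes, in turn, include some that pass through their day 3 level alone. At day 3 levels of 1 to 5, 5 to 25 and 25 CPM or more, higher genes had 32.9% (24 of 73), 24.4% (10 of 41) and 14.3% (3 of 21). In the same ranges lower genes had 12.1%, 7.50% and 6.25%, and the neither class 17.3%, 8.02% and 4.43%. In the highest range the interval of the higher genes (3.05% to 36.3%) took in the share of the neither class, so no difference was detectable there. Over the genes chosen by mean CPM, of which 51 of the 186 higher ones lay below 1 CPM on day 3, the shares were 29.6%, 8.26% and 7.17%. Median gene length among genes chosen by mean CPM was 25.2 kb for higher, 14.8 kb for lower and 22.0 kb for the others, and its part in the shares was not tested. Islands were dense on chromosomes 6 and 19 (4155 and 1895), and without those chromosomes the shares were 28.9%, 8.91% and 6.40%.

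**Figure D5:**
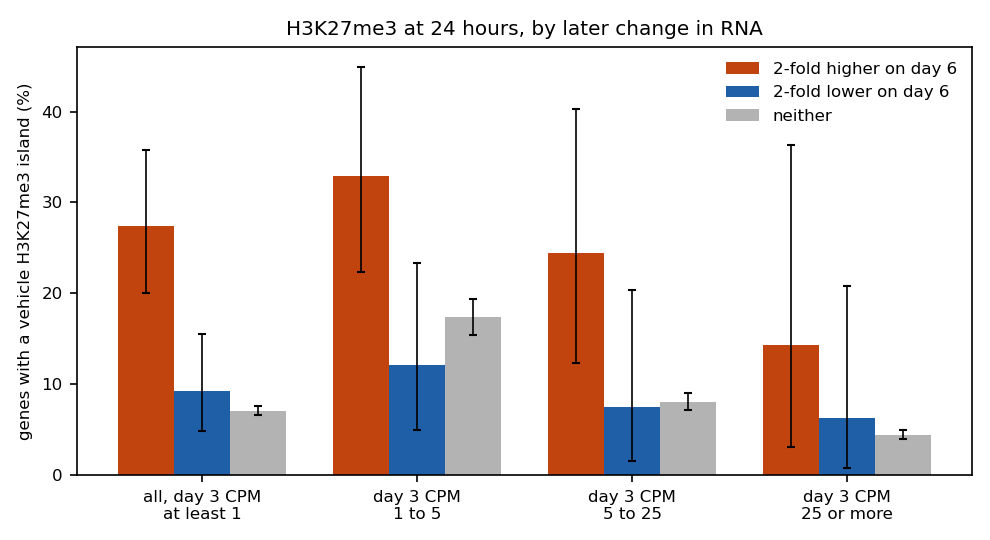
Share of genes (%) with a vehicle H3K27me3 island at 24 hours in the gene or 2 kb around it, among genes with at least 1 CPM on day 3, for genes at least 2-fold higher on day 6, at least 2-fold lower, and neither, over all such genes and within 3 ranges of day 3 CPM, with exact 95% binomial intervals as bars. Higher genes have 27.4% over all, lower genes 9.23% and the others 7.09%, and at 25 CPM or more the intervals of the 3 classes overlap.

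Signalling and membrane genes were among those with islands. Islands lay at Wnt7b, Wif1, Notum, Nog, Gdf6, Ngfr, Plcg2, Ngef, Enpp2, Eln, Col15a1, Atf3 and Nr4a3 among the risen genes, and at Gli1 and Col2a1 among the fallen ones. At Atf3, Gli1 and Col2a1 the only island lay outside the gene, in the 2 kb beside it. These 3 islands had 86 ChIP and 78 input reads, 38 and 24, and 30 and 30, with authors' folds of 1.85, 2.66 and 1.68. In the authors' deposited list the island with the highest enrichment at Ngfr (chr11:95568821-95587698) ran over chr11:95578401-95592400 with 230 ChIP and 121 input reads, and that at Wnt7b over chr15:85578001-85590600 with 196 and 121. None was found at Bglap, Bglap2, Ibsp, Ifitm5, Dlx3, Lum, F13a1, Itgbl1 or Mmp13. Over all 23289 genes with a unique name 20.5% had an island, with 7.54% of the 11594 measured and 33.3% of the 11695 not measured. Beside these shares, 9 of 12 secreted Wnt antagonists had one, of which 5 were measured, and other lists with many unmeasured members also had high shares, with 5 of 9 neuronal, 6 of 12 adipocyte, 6 of 13 Hedgehog, 5 of 11 macrophage and 4 of 9 endothelial genes. None was found at the 18 osteoblast transcription factor, 39 S phase and 34 mitosis genes, which were all measured.

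A further pair of libraries, cells given 5 µM GSK126, read on days 6 and 3, shares no library with the vehicle pair and gives a second reading of the same interval under the inhibitor. Of the 186 genes higher in vehicle, 174 had positive ratios there and 127 were at least 2-fold higher (background 2.99% of all genes tested). Of the 109 lower genes, 106 had negative ratios and 74 were at least 2-fold lower (background 4.39%, and 7.38% for both directions). Over all genes, 51.0% of the ratios in that pair were positive. Fos had 838 counts on day 6 and 11862 on day 3 there (-3.62), and Itgbl1, Dpt and Bglap stood at 3.81, 4.48 and 4.75. Sap30l (2622 and 2468 counts, 0.29), Ngfr (3106 and 3550 counts, 0.01) and Corin (2 counts on each day) were level. Ephx4 had 6 and 18 counts, already low on day 3. In this pair cell division genes had lower ratios, with medians of -1.75 for mitosis and -1.23 for S phase, beside -0.76 and -0.66 in vehicle, and that difference was not tested.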

How the data were processed

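RNA was sequenced from 6 cultures of MC3T3 cells, with 1 library a group, and the day 6 and day 3 vehicle libraries were compared. The authors deposited raw read counts per gene with RPKM, and, per the submitters' processing notes, CASAVA 1.9, BWA 0.5.9, SICER 1.1, TopHat2 2.0.6 and HTSeq 0.5.3p9 were used with build mm10. The notes give no roles. All counts were even, so 2 counts were taken as 1 sequenced fragment. RPKM, also the authors' values, were not used for any result given here. The library kit named in the labels' protocols (TruSeq v2) does not mark strand, so reads of overlapping and antisense genes cannot be told apart. The deposited H3K27me3 island list holds, by its layout, for each island the read counts of ChIP and input, a fold ratio, and a raw and an adjusted p-value, and the authors' threshold is not given in the sources used here.

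Counts were scaled by TMM over the 6 RNA libraries in edgeR 4.0.16 (R 4.3.3), and log2 ratios of CPM used a prior count of 2. Genes needed a mean CPM of at least 1 in the 2 libraries, and 2-fold counted as a change. Exact (Clopper-Pearson) 95% intervals were taken on fragments with SciPy 1.17.1, and PCR duplicates were not removed here, so they cover counting error only. The code was tested on simulated data. The alternatives were other scalings, including DESeq2 1.42.0 size factors, prior counts and filters, and other rules for islands. Genes named with their values were the 15 highest and 15 lowest ratios at mean CPM of at least 5, the 8 largest gains and losses in CPM, and the changed and the 4 most abundant members of each of 49 gene lists. Some genes that this rule names are not reported here. Others are named for their role, after their values were seen. The members and lists were chosen with earlier results of these data known.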

Additional observations from a re-analysis of the deposited data

Results flagged for a closer look

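Pcdhac2 had opposite directions in the vehicle and GSK126 pairs of libraries. Its log2 ratio of day 6 over day 3 was -0.89 in GSK126-treated cells (1374 counts on day 6 and 2940 on day 3), beside 2.71 in vehicle cells (17298 and 2960 counts). With 1 library a group the difference was not tested. The gene shares its last exons with other genes of the protocadherin alpha cluster, so its counts are uncertain.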

How the results depend on the processing

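No paired analysis was possible because each group is 1 library and the labels carry no replicate numbers. Without replicates, culture-to-culture spread is unknown, and the intervals cover counting error only. Without a filter on low counts, 1295 genes were higher and 905 lower. At a mean CPM of at least 5 the counts were 95 and 62. Requiring the whole counting interval past 2-fold left 131 higher and 57 lower genes. Under the other scalings, prior counts and the filter over 6 libraries, both counts moved by less than 1.5 times, and without Rn45s in the totals they were 177 and 143. Of 87 named genes past 2-fold none changed direction under any scaling or prior count, and Chac1 alone fell short, under 2 scalings. Ratios nearer to 0 than 0.08, such as that of Atf4, can change sign with the scaling. The medians of 5 of 47 gene lists changed sign with the scaling, all within 0.1 of 0. They were the BMP ligands, osteoblast transcription factors and oxidant defence, chondrocyte and adipocyte genes. Library totals alone shifted the median ratio of all genes by -0.08. Genes just short of 2-fold lower, such as Rrm2 and Tm7sf2, can pass that limit with library totals alone. Island shares over genes chosen by mean CPM were 21.0% of higher, 5.50% of lower and 3.89% of unchanged genes with only islands above the median enrichment. With islands over most of the gene body (at least 50% of it) they were 3.23% of higher, 0% of lower and 0.230% of unchanged genes. Within the gene body as given they were 27.4%, 4.59% and 3.52%, and without chromosomes 6 and 19, an alternative added after seeing the data, 28.9%, 8.91% and 6.40%. The cause was not tested.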

Other observations

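Genes for cytosolic ribosomal proteins were examined after their values were seen. Of 81 measured genes 79 had positive log2 ratios of day 6 over day 3 in vehicle cells, with a median of 0.33 and quartiles of 0.27 and 0.39, and 0 passed 2-fold. In the GSK126 pair their median was 0.54. Of 6 measured replication-dependent histone genes 2 fell, beside 0.939% of all genes tested, and the median of the 6 was -0.19. The count table holds 68 such genes, so most were not measured, and these 6 say little about the class.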
